A study of Mus musculus with 54 samples.

Results

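Slc15a3, Tmem132a, Gcnt1, Carnmt1, Wdfy1 and Xdh are 6 mouse genes of the 55385 counted by RNA sequencing in naive CD4+ T cells lacking CD5, CD6, both, or the adaptor LAT. They were selected on their RNA, which differed from WT in at least 1 of the Cd5 and Cd6 knockouts after 20 h of stimulation, and 4 of them lie on chromosome 19, which holds Cd5 and Cd6. The 20 h values of the knockouts and their WT therefore chose the genes and are given below as a description with no test. The 6 genes by 3 knockouts made 18 such differences at 20 h. A difference was called where the fold change was above 2 and the adjusted p under 0.05. At 20 h, 7 of the 18 passed these thresholds, which describes the choice and is no evidence for the genes. Gcnt1, Carnmt1 and Wdfy1 gave 3 of these in Cd5-/- cells, Xdh gave 1 in Cd6-/- cells, and Slc15a3, Tmem132a and Xdh gave 3 in cells lacking both. Over all 32290 genes tested, 0.0186% were called in Cd5-/- and 0.0186% in Cd6-/- cells, and 0.0434% in the double knockout, shares that cannot be set against the members because the same contrast selected them. The smallest fold change among the 7 was 2.32 for Xdh in Cd6-/- cells, and the largest among the other 11 was 2.80 for Wdfy1 in Cd6-/- cells.

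The counts came from 2 experiments. For the CD5/CD6 experiment, cells of WT mice, of both single knockouts (Cd5-/- and Cd6-/-) and of the double knockout (Cd5-/-Cd6-/-) were enriched with a magnetic kit from pooled lymph nodes and spleens of C57BL/6 mice, 8–10 wk of age. Cd5-/- mice were an older line crossed back to C57BL/6, whereas the Cd6-/- and the double knockout were each a line made on C57BL/6 by genome editing. In the LAT experiment, WT and Lat-/- cells were sorted by flow cytometry from Latfl-dtr maT-Cre mice, so that its WT cells also came from mice with the floxed allele and the Cre, and were recognized by human DTR, a receptor for diphtheria toxin that the Lat-/- cells had lost. RNA was taken before stimulation (0 h) and after 4 h or 20 h on plates coated with anti-CD3 (3 µg/ml), with anti-CD28 (1 µg/ml) added, with 3 samples in each group. Whether the 3 samples of a group came from separate mice is not stated, so p-values measure the spread between these samples only.

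The 36 libraries of the CD5/CD6 experiment held 20554354 to 45222554 counts (median 31680304), and the 18 of the LAT experiment 17784644 to 28501095. A floor of 3 counts stood at 0.0663 to 0.146 CPM (read counts scaled to a common library size) in the first and 0.105 to 0.169 CPM in the second, and covers counting error only. Of the members' 216 values in the CD5/CD6 experiment, 6 were at or under 3 counts, 5 of them in Cd5-/-Cd6-/- cells at 20 h. Of the 108 values in the LAT experiment, 20 were at or under 3 counts. Markers of CD4 T cells were detected in every library. At 0 h, the library labelled Cd5-/- replicate 2 held Cd5 at 719 CPM, against 105 and 129 CPM in the other 2 Cd5-/- libraries and 602 to 657 CPM in WT, and Cd6 at 329 CPM, against 1084 and 1298 CPM in those 2. The library labelled Cd6-/- replicate 2 held Cd5 at 172 CPM and Cd6 at 1203 CPM, against 251 and 349 CPM of Cd6 in the other 2 Cd6-/- libraries. For both genes, each of the 2 libraries thus resembled the other genotype. Both went against their labels and were kept under them. The tested 0 h results of those genotypes were computed with and without them, with both values given where a call differed. The 0 h to 20 h differences of those genotypes, which are descriptions, were computed with them only. Summed CPM of 8 macrophage or monocyte markers spanned 129 to 299 in WT cells at 0 h, 17.9 to 30.7 at 4 h and 2.25 to 3.58 at 20 h in the CD5/CD6 experiment, but 4.80 to 7.45 in sorted WT cells at 0 h. In such bulk RNA, fewer cells of a type and less RNA per cell cannot be told apart.

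CD5 and CD6 are coreceptors of T cells, with scavenger receptor cysteine-rich domains, that are encoded side by side and bind signaling proteins through their cytosolic tails once the TCR is engaged, and LAT is the adaptor on which much of the TCR signal is assembled. The 6 genes have unrelated products. Slc15a3 is a proton-coupled transporter of histidine and small peptides in endosomes and lysosomes, where such carriers hand fragments of bacterial cell wall to the cytosolic sensor NOD2. Tmem132a is a transmembrane protein that binds the chaperone HSPA5 of the endoplasmic reticulum and the Wnt carrier WLS. Gcnt1 makes the core 2 branch of O-linked glycans, on which selectin ligands of activated T cells are built. Carnmt1 methylates the histidine of carnosine to give anserine. Wdfy1 binds the phosphoinositide of early endosomes and links TLR3 and TLR4 to their adaptor TRIF. Xdh, a molybdenum enzyme of purine breakdown, oxidizes hypoxanthine and xanthine to uric acid.

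The guides used for the edited lines are shown because they place the targeted DNA next to Slc15a3 and Tmem132a. Each is given 5′ to 3′ as a protospacer of 20 bases in lower case followed by its PAM in capitals, as found on the forward strand of chromosome 19 of GRCm38. CD5-1 and CD6-1 were used for the double knockout, and CD6-1 and CD6-2 for Cd6-/-.
CD5-1: cagcacttcgtgggagtccaTGG
CD6-1: ggagacggttgtgccaccgaTGG
CD6-2: ccaaggaagagccacatgtcTGG
CD5-1 lay at chr19:10738826-10738848, in coding sequence of exon 1 of Cd5. CD6-1 lay at chr19:10829917-10829939, in the 5′ UTR of exon 1 of Cd6, and CD6-2 at chr19:10829840-10829862, over the start codon in the same exon. The expected cuts of CD6-1 and CD6-2 were 77 bases apart, and those of CD5-1 and CD6-1 were 91091 bases apart. These are positions expected from the guides and not the exact ends of the deletions in the lines. The reported ends of the double knockout deletion lie close to its expected cuts. The deletion of the Cd6-/- line is longer than the interval between its 2 expected cuts. Between the expected cuts of CD5-1 and CD6-1 lay 99.7% of the gene body of Cd6 and 0.731% of that of Cd5. Cd5 is transcribed away from that interval. The interval also held the whole of A430093F15Rik, a gene of no known function.

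Slc15a3 (ENSMUSG00000024737.2, chr19:10839727-10859362, forward strand) began 9.794 kb beyond the expected CD6-1 cut, outside that interval. Tmem132a (ENSMUSG00000024736.15, chr19:10857822-10869940, reverse strand) ended 27.889 kb beyond the cut and began 40.007 kb beyond it. The annotated bodies of Slc15a3 and Tmem132a overlapped tail to tail over 1541 bases, on opposite strands. Libraries marked strand, but the strand setting of the counting is not given in the sources used here, so reads within the overlap could have gone to either gene. Gcnt1 (ENSMUSG00000038843.18, chr19:17326141-17372844, reverse strand) and Carnmt1 (ENSMUSG00000024726.10, chr19:18670764-18707200, forward strand) lay several Mb farther on the same side. Wdfy1 (ENSMUSG00000073643.11, chr1:79702262-79776143, reverse strand) and Xdh (ENSMUSG00000024066.9, chr17:73883895-73950196, reverse strand) are on other chromosomes.

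**Figure D1:**
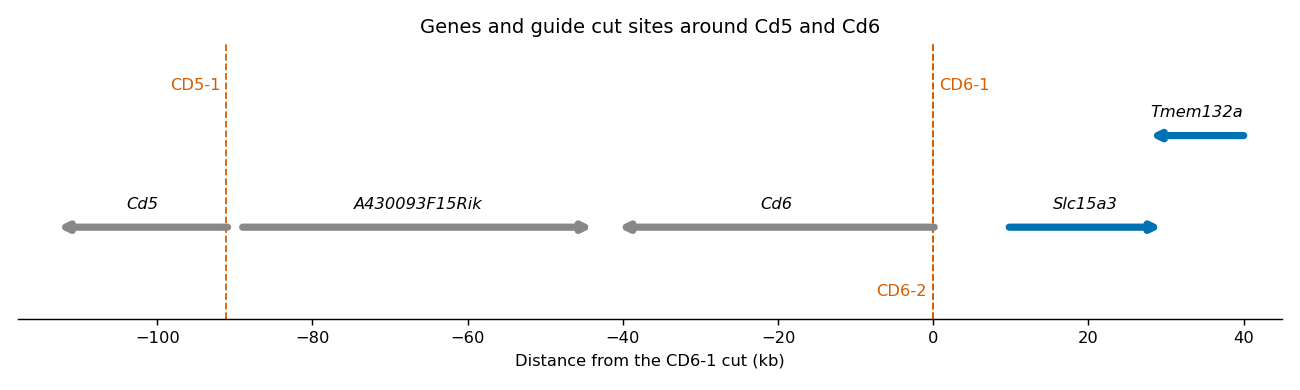
Position of Cd5, A430093F15Rik, Cd6, Slc15a3 and Tmem132a relative to the expected cut site of guide CD6-1, in kb, drawn to scale with arrows for the direction of transcription. The interval between the expected CD5-1 and CD6-1 cuts, 91.091 kb long, holds A430093F15Rik and nearly all of Cd6, and Slc15a3 begins 9.794 kb outside it.

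Per kb of annotated exons, the 6 genes were scarce next to Cd5. Before stimulation, in enriched WT cells, Tmem132a stood at 0.0439 ± 0.022 CPM per kb (SD, n = 3), Slc15a3 at 0.552 ± 0.27, Gcnt1 at 0.566 ± 0.26, Carnmt1 at 0.725 ± 0.059, Wdfy1 at 1.19 ± 0.77 and Xdh at 1.53 ± 0.15 CPM per kb, against 126 ± 6.1 for Cd5. Slc15a3 and Gcnt1 did not differ beyond their spread, nor did Wdfy1 and Xdh. After 20 h of stimulation the order in WT was Gcnt1, Tmem132a, Slc15a3, Xdh, Wdfy1 and Carnmt1, with Carnmt1 at 2.60 ± 0.19 CPM per kb and the other 5 at or under 0.561 CPM per kb. Tmem132a, Slc15a3 and Xdh lay within their spread of each other, and Wdfy1, at 0.561 ± 0.59 CPM per kb, could not be placed because 1 WT library was far above the other 2. The plot of CPM by genotype and time shows each library.

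**Figure D2:**
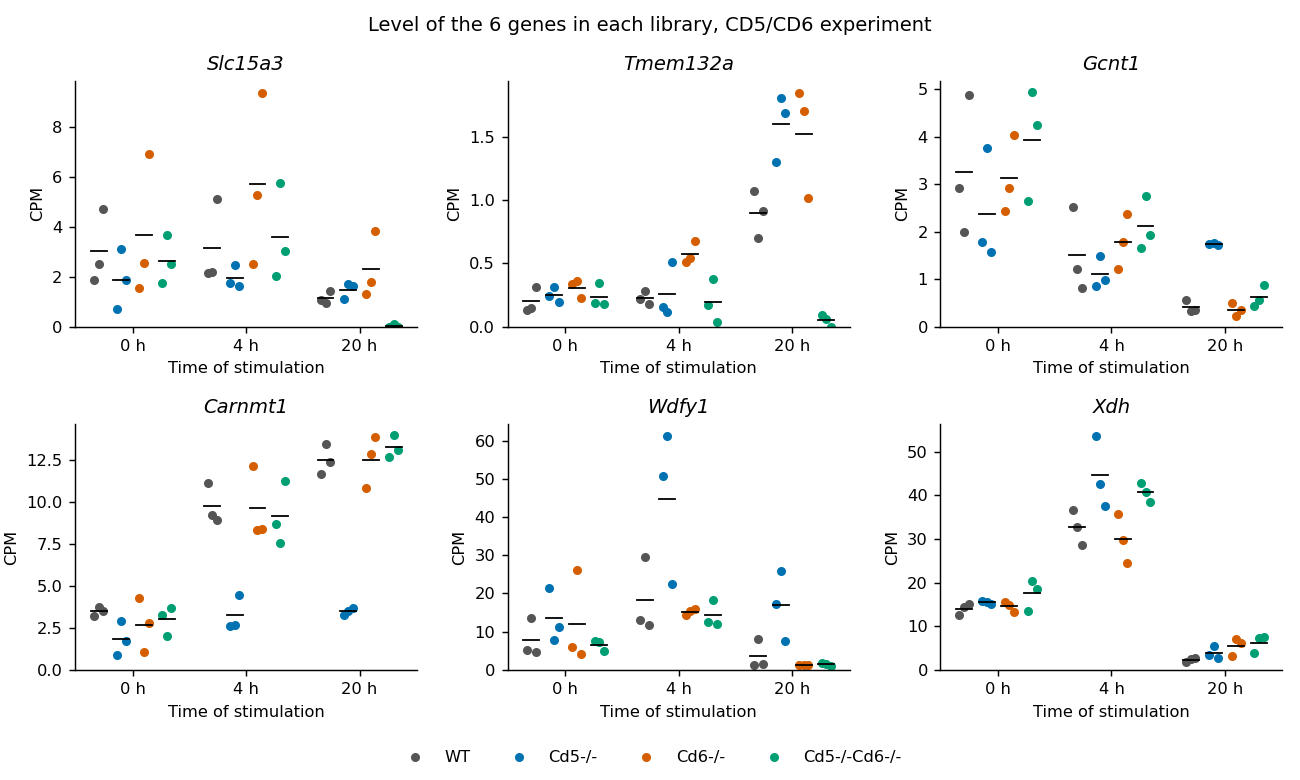
CPM (linear axis from 0, with its own range for each gene) of the 6 genes in each library of the CD5/CD6 experiment at 0, 4 and 20 h, with 1 point per library and a bar for the mean of 3. At 20 h, Slc15a3 and Tmem132a of Cd5-/-Cd6-/- cells lie below all other libraries, Carnmt1 of Cd5-/- cells at 3.28 to 3.66 CPM lies below all others, and Gcnt1 of Cd5-/- cells at 1.72 to 1.76 CPM lies above all others.

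After 20 h of stimulation, RNA of Slc15a3 and Tmem132a was close to undetectable in Cd5-/-Cd6-/- cells only. Slc15a3 was present in the same genotype at 0 h and 4 h. Tmem132a was already scarce there, with 5 to 9 reads per library at 0 h and 1 to 15 at 4 h. Slc15a3 at 20 h stood at 1.07, 0.958 and 1.45 CPM in the WT libraries, at 1.12, 1.71 and 1.63 CPM in Cd5-/-, at 1.33, 1.80 and 3.84 CPM in Cd6-/-, and at 0, 0.120 and 0 CPM in Cd5-/-Cd6-/- libraries, the last from 0, 4 and 0 reads. Each double knockout library lay below every library of the other genotypes. The difference from WT was -4.65 on the log2 scale (SE 0.74), and it ranged from -8.29 to -4.01 when each replicate number was left out in turn, because 1 library held all 4 reads. Tmem132a at 20 h stood at 1.07, 0.700 and 0.913 CPM in WT, at 1.30, 1.81 and 1.69 CPM in Cd5-/-, at 1.85, 1.71 and 1.02 CPM in Cd6-/-, and at 0.0889, 0.0598 and 0 CPM in Cd5-/-Cd6-/- libraries, from 3, 2 and 0 reads. The double knockout libraries again lay apart below all others, by -4.00 from WT on the log2 scale (SE 0.68). Tmem132a of Cd5-/- cells lay above WT in each library, by 0.84 on the log2 scale (SE 0.49).

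Earlier time points, which did not enter the choice, gave no such gap. At 4 h, Slc15a3 stood at 2.14, 2.20 and 5.11 CPM in WT and at 2.04, 5.77 and 3.02 CPM in Cd5-/-Cd6-/- libraries. The 2 groups overlapped, and so did those at 0 h, where WT stood at 1.86, 2.50 and 4.73 CPM and the double knockout at 1.73, 3.68 and 2.51 CPM. Cd6-/- libraries held 2.52, 5.30 and 9.39 CPM of Slc15a3 at 4 h and Cd5-/- libraries 1.74, 2.47 and 1.62 CPM, and both overlapped WT. Tmem132a was near the floor at 4 h. WT libraries held 0.220, 0.285 and 0.177 CPM and double knockout libraries 0.173, 0.376 and 0.0328 CPM, which overlapped. At 0 h, WT libraries held 4 to 13 reads of Tmem132a and double knockout libraries 5 to 9. A loss of Tmem132a could therefore hardly have shown at either time. Tmem132a of Cd6-/- cells at 4 h, at 0.514, 0.542 and 0.678 CPM, lay above every WT library, by 1.31 on the log2 scale (SE 0.56), but was not called (edgeR's quasi-likelihood test, adjusted p = 1).

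Slc15a3 is also expressed by myeloid cells, whose markers were higher at 0 h and 4 h than at 20 h. Slc15a3 at 0 h was at 3.03 ± 1.5 CPM in magnetically enriched WT cells but at 0.146 ± 0.096 CPM in sorted WT cells (SD, n = 3 each), in tables that were normalized separately. Macrophage or monocyte markers summed to 91.5 to 244 CPM in Cd5-/-Cd6-/- cells at 0 h and 14.2 to 50.4 CPM at 4 h, with 0 of 8 markers at 0 in any of these libraries. At 20 h they summed to 2.24 to 2.70 CPM in the double knockout, with 1 to 3 of 8 at 0, and to 2.25 to 3.58 CPM in WT, with 0 to 2 at 0. The part of such cells in the Slc15a3 values at 0 h and 4 h was not tested.

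In the LAT experiment, whose WT cells did not enter the choice, both genes rose with stimulation. From 0 h to 20 h, Tmem132a rose in sorted WT cells by 3.70 on the log2 scale (SE 0.81, edgeR adjusted p = 2.78e-05), from 0.157, 0 and 0.105 CPM to 0.642, 1.59 and 1.41 CPM. The 20 h libraries lay above all 0 h libraries. Slc15a3 rose there by 2.44 (SE 0.75, adjusted p = 0.00422), from 0.196, 0.207 and 0.0350 CPM to 0.300, 0.774 and 1.33 CPM, with no overlap. Without the replicates numbered 3 that rise was 1.41 with edgeR's adjusted p = 0.302. In enriched WT cells, the 20 h levels of Tmem132a were 2.11 above those at 0 h on the log2 scale (SE 0.56) and those of Slc15a3 were 1.40 below (log2 difference -1.40, SE 0.46), both given without a test since the 20 h samples entered the choice.

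Carnmt1 was lower in Cd5-/- cells at 4 h, in samples that did not choose the gene but came from the same lines. Same-numbered libraries deviated together between 0 h and 4 h (r of 0.237 to 0.411 in Cd5-/- and 0.208 to 0.457 in WT). Whether the 4 h and 20 h samples shared cells is not stated, so the 4 h result may not be independent of the choice. At 4 h, Carnmt1 stood at 11.1, 9.19 and 8.90 CPM in WT, at 2.62, 2.64 and 4.44 CPM in Cd5-/-, at 12.1, 8.34 and 8.41 CPM in Cd6-/-, and at 8.70, 7.57 and 11.2 CPM in Cd5-/-Cd6-/- libraries. All 3 Cd5-/- libraries lay below all 9 others, whereas the Cd6-/- and double knockout libraries overlapped WT. Carnmt1 fell by 1.60 on the log2 scale in Cd5-/- against WT (SE 0.28, edgeR's quasi-likelihood test, p adjusted by Benjamini-Hochberg over 32290 genes = 0.00192). It was the only member called in that comparison, 1 of 6, where 0.0743% of all genes were called, and DESeq2 also called 1. With edgeR's filter on low counts the difference was -1.58 with adjusted p = 0.114, so the call is lost under that filter. B cell markers summed to 37.3 to 49.9 CPM in Cd5-/- cells at 4 h, 62.6 to 197 in WT and 83.8 to 131 in the double knockout. Those of gamma delta T cells summed to 57.3 to 63.0 CPM in Cd5-/- cells, 21.2 to 23.1 in WT and 62.3 to 86.6 in the double knockout, and the part of either in the result was not tested.

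The double knockout did not share the low Carnmt1. Carnmt1 in Cd5-/-Cd6-/- cells at 4 h was 1.51 above that in Cd5-/- cells on the log2 scale (SE 0.28, edgeR adjusted p = 0.00219). Carnmt1 and Wdfy1 were the 2 members of 6 called between these genotypes at 4 h, where 0.579% of all genes were called. Between the double knockout and Cd6-/- cells at 4 h, 0 of 6 were called by edgeR, 2 had an unadjusted p under 0.05, and DESeq2 called 0, against 0.0155% of all genes called by edgeR. With edgeR's filter on low counts, Carnmt1 in the double knockout against Cd5-/- was 1.48 with adjusted p = 0.0705.

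At 20 h, the contrast that chose it, Carnmt1 stood at 11.6, 13.4 and 12.4 CPM in WT, 3.28, 3.52 and 3.66 CPM in Cd5-/-, 10.8, 12.8 and 13.8 CPM in Cd6-/-, and 12.7, 14.0 and 13.1 CPM in Cd5-/-Cd6-/- libraries. The Cd5-/- libraries lay apart below all others, at a log2 difference from WT of -1.84 (SE 0.28). At 0 h, Carnmt1 stood at 3.19, 3.76 and 3.49 CPM in WT and at 0.892, 2.91 and 1.70 CPM in libraries labelled Cd5-/-, the 2.91 in the replicate 2 that was high in Cd5. Carnmt1 stood at 4.25, 1.04 and 2.77 CPM in libraries labelled Cd6-/-, the 1.04 in the replicate 2 that was low in Cd5, and at 3.28, 2.03 and 3.70 CPM in the double knockout.

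At 0 h no member was called in any knockout with all libraries kept. For Cd5-/- against WT at 0 h, 0 of 6 members were called by edgeR and 0 by DESeq2, 1 had an unadjusted p under 0.05, and 0.0619% of all genes were called. That 1 was Carnmt1, whose log2 difference was -0.94 (SE 0.29, adjusted p = 0.469). Without the 2 libraries that went against their labels, Carnmt1 at 0 h was called at -1.43 (edgeR adjusted p = 0.00145). Without all replicates numbered 2, both Carnmt1 (-1.37) and Wdfy1 were called. For Cd6-/- against WT at 0 h, 0 members were called with and without those libraries, 0 had an unadjusted p under 0.05, DESeq2 called 0, and 0% of all genes were called. For the double knockout at 0 h, 0 members were called by edgeR or DESeq2 and 0 had an unadjusted p under 0.05, beside 0.0248% of all genes called.

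**Figure D3:**
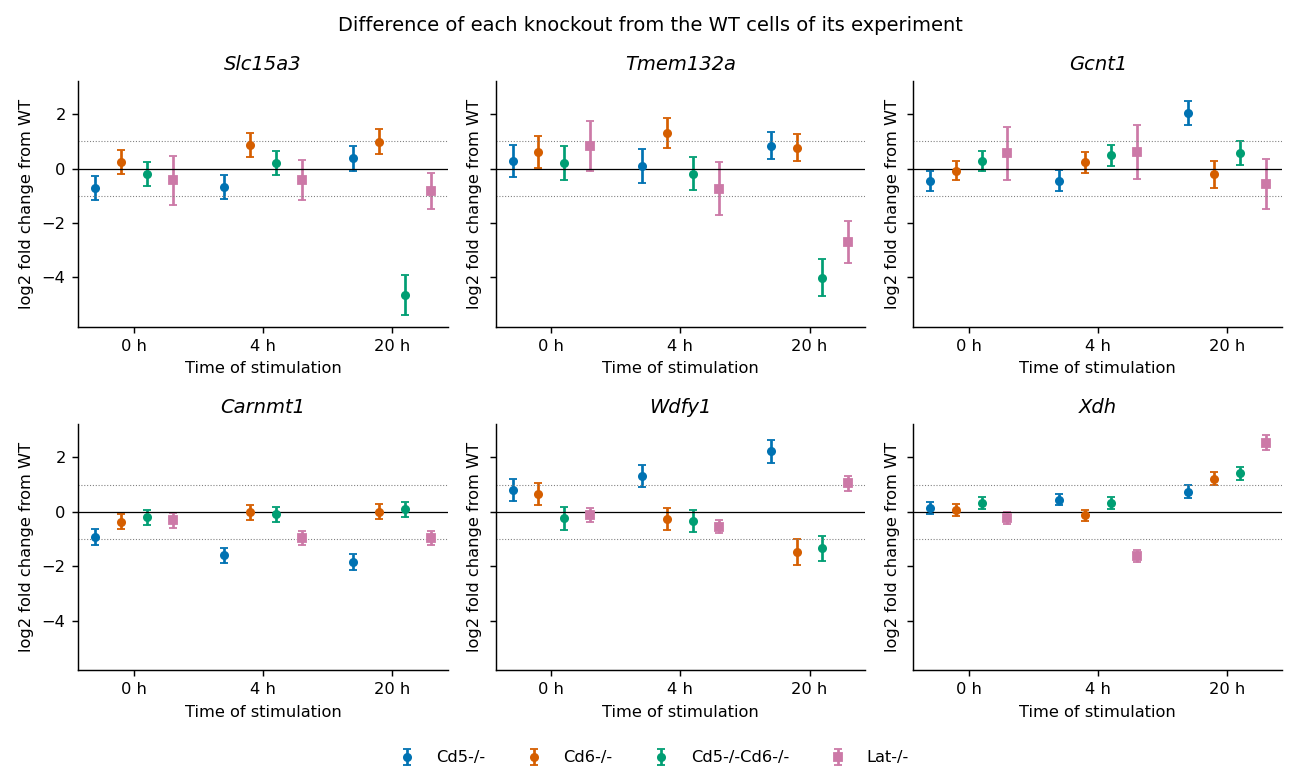
log2 fold change from WT (± SE) of the 6 genes in Cd5-/-, Cd6-/- and Cd5-/-Cd6-/- cells at 0, 4 and 20 h, and in Lat-/- cells at the same times. Carnmt1 in Cd5-/- cells is at -1.60 at 4 h and -1.84 at 20 h, and Slc15a3 and Tmem132a in the double knockout are at -4.65 and -4.00 at 20 h.

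Gcnt1, the core 2 enzyme, separated Cd5-/- from the other genotypes at 20 h, where its level was low in WT. Gcnt1 at 20 h stood at 0.564, 0.332 and 0.343 CPM in WT, at 1.75, 1.76 and 1.72 CPM in Cd5-/-, at 0.493, 0.230 and 0.353 CPM in Cd6-/-, and at 0.445, 0.568 and 0.884 CPM in Cd5-/-Cd6-/- libraries. All Cd5-/- libraries lay above all others, at a log2 difference from WT of 2.04 (SE 0.43). Gamma delta T cell markers at 20 h summed to 12.9 to 14.4 CPM in Cd5-/-, 5.20 to 7.53 in WT and 13.5 to 20.7 in the double knockout. Those of B cells summed to 1.30 to 1.54, 1.86 to 3.27 and 1.30 to 2.27 CPM in the same order. The part of either in the Gcnt1 values was not tested. At 4 h, Gcnt1 stood at 2.52, 1.22 and 0.816 CPM in WT and at 0.852, 1.50 and 0.982 CPM in Cd5-/- libraries, which overlapped. At 0 h, WT libraries held 2.93, 1.99 and 4.87 CPM of Gcnt1 and Cd5-/- libraries 1.78, 3.77 and 1.58 CPM, also with overlap.

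Gcnt1 had a lower mean at 4 h than at 0 h in every genotype of the CD5/CD6 experiment. It was called as lower in WT and Cd5-/- cells only. Its mean went from 3.13 to 1.79 CPM in Cd6-/- cells and from 3.94 to 2.12 CPM in the double knockout, neither called. It fell by 1.11 on the log2 scale from 0 h to 4 h in WT (SE 0.37, edgeR adjusted p = 0.0168) and by 1.08 in Cd5-/- (SE 0.39, adjusted p = 0.0248). Without the replicates numbered 3 the WT fall was 0.40 on the log2 scale (log2 difference -0.40, adjusted p = 0.577), and without the 0 h libraries that went against their labels the Cd5-/- difference was -0.58 (adjusted p = 0.377). The Cd5-/- call was also lost without the replicates numbered 1 (adjusted p = 0.0611) or 2 (adjusted p = 0.216). From 0 h to 20 h the log2 difference of Gcnt1 was -2.95 in WT (SE 0.42), -3.10 in Cd6-/- (SE 0.43), -2.65 in the double knockout (SE 0.41) and -0.44 in Cd5-/- cells (SE 0.37), given as a description. The Cd5-/- and Cd6-/- values include the 0 h libraries that went against their labels. The library labelled Cd5-/- replicate 2 held 3.77 CPM at 0 h, against 1.58 and 1.78 CPM in the other 2. At 0 h, Gcnt1 stood at 3.26 ± 1.5 CPM in enriched WT cells (SD, n = 3). Sorted WT cells, normalized separately, held 0.126 ± 0.078 CPM (SD, n = 3). Macrophage or monocyte markers also fell in enriched WT cells, as given above, and their part in these falls was not tested.

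Wdfy1 had its highest mean in Cd5-/- cells at every time and varied between WT libraries. At 20 h, Wdfy1 stood at 1.35, 8.07 and 1.48 CPM in WT, at 17.2, 25.8 and 7.61 CPM in Cd5-/-, at 1.23, 1.35 and 1.28 CPM in Cd6-/-, and at 1.81, 1.44 and 0.994 CPM in Cd5-/-Cd6-/- libraries. The WT replicate 2 stood apart from the other 2 and overlapped the lowest Cd5-/- library. The log2 difference from WT was 2.22 in Cd5-/- (SE 0.43), -1.48 in Cd6-/- (SE 0.47) and -1.34 in the double knockout (SE 0.46). Without the replicates numbered 2, those of Cd6-/- and of the double knockout became -0.17 and 0.02, so both rested on replicates numbered 2, of which the WT library was the high one.

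At 4 h, Wdfy1 stood at 13.0, 29.6 and 11.8 CPM in WT, at 50.6, 61.2 and 22.3 CPM in Cd5-/-, at 14.2, 15.3 and 16.0 CPM in Cd6-/-, and at 12.6, 18.3 and 12.1 CPM in Cd5-/-Cd6-/- libraries. The WT replicate 2 was again the highest of its group and lay above the lowest Cd5-/- library. The Cd5-/- difference from WT was 1.30 on the log2 scale (SE 0.40), with edgeR's adjusted p = 0.346, and was not called. Same-numbered libraries of these groups varied together, and with the replicate block the difference was 1.32 with adjusted p = 0.0229, so that 2 members of 6 were called. It was also called in each fit that left out 1 replicate number, at 1.01 to 1.57 on the log2 scale. Against Cd5-/- cells, Wdfy1 in the double knockout at 4 h fell by 1.64 on the log2 scale (SE 0.41, adjusted p = 0.0252), with no overlap, but DESeq2 gave an adjusted p = 0.232 for it and edgeR with its filter on low counts 0.305.

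At 0 h, Wdfy1 stood at 5.09, 13.5 and 4.63 CPM in WT, at 21.5, 7.68 and 11.2 CPM in libraries labelled Cd5-/-, at 5.86, 26.0 and 4.22 CPM in libraries labelled Cd6-/-, and at 7.58, 7.16 and 4.84 CPM in the double knockout. The highest of the 12 was the library labelled Cd6-/- replicate 2, in which Cd5 was low, and the lowest of the 3 labelled Cd5-/- was the replicate 2 that was high in Cd5. The 3 groups of knockouts all overlapped WT. The WT replicate 2 was the highest WT library for Wdfy1 at 0, 4 and 20 h. Summed markers of regulatory T cells in Cd5-/- cells at 4 h were 24.4 to 53.7 CPM, against 25.7 to 37.7 in WT, and overlapped, whereas the B cell and gamma delta T cell markers given above for Carnmt1 did not overlap between these groups. Their part in the Wdfy1 values was not tested.

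Xdh was highest at 4 h and lowest at 20 h in all 4 genotypes of the CD5/CD6 experiment, and its 20 h level was higher in both genotypes without CD6. Xdh at 0 h spanned 12.5 to 20.5 CPM over the 12 libraries and at 4 h 24.4 to 53.7 CPM. At 20 h it stood at 1.80, 2.54 and 2.70 CPM in WT, at 3.50, 5.48 and 2.60 CPM in Cd5-/-, at 3.21, 7.09 and 6.05 CPM in Cd6-/-, and at 3.91, 7.24 and 7.58 CPM in Cd5-/-Cd6-/- libraries. The Cd6-/- and double knockout libraries lay above all WT libraries, and the Cd5-/- libraries overlapped them. The log2 difference from WT at 20 h was 1.22 in Cd6-/- (SE 0.24), 1.41 in the double knockout (SE 0.24) and 0.73 in Cd5-/- cells (SE 0.24). NK cell markers summed to 11.5 to 14.7 CPM in WT, 21.8 to 25.4 in Cd6-/- and 5.93 to 21.8 in the double knockout at 20 h, and their part in the result was not tested.

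Xdh at 4 h stood at 36.7, 32.7 and 28.6 CPM in WT, 53.7, 42.6 and 37.6 CPM in Cd5-/-, 35.7, 29.7 and 24.4 CPM in Cd6-/-, and 42.9, 40.9 and 38.4 CPM in Cd5-/-Cd6-/- libraries. Those of Cd5-/- and of the double knockout lay just above WT, and those of Cd6-/- overlapped it. None of the 3 differences was called: Xdh in Cd5-/- was 0.45 above WT on the log2 scale (SE 0.21, edgeR adjusted p = 1). At 4 h, 0 of 6 members were called in Cd6-/- against WT by edgeR or DESeq2, with 2 at an unadjusted p under 0.05 and 0.0031% of all genes called. In the double knockout 0 of 6 were called by either tool at 4 h, with 0 at an unadjusted p under 0.05 and 0.0434% of all genes called.

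Among the first responses to stimulation, from 0 h to 4 h, Xdh and Carnmt1 rose in most genotypes. In enriched WT cells, 4 of 6 members were called by edgeR (3 by DESeq2), where 19.3% of all genes were. Carnmt1 rose by 1.48 on the log2 scale (SE 0.28, adjusted p = 9.53e-06), Wdfy1 by 1.24 (SE 0.41, adjusted p = 0.0136) and Xdh by 1.22 (SE 0.21, adjusted p = 1.79e-06), and Gcnt1 fell as given above. Scaled by library totals alone, Wdfy1 and Xdh rose by 0.97 each and were under the fold threshold, and with DESeq2 the rise of Wdfy1 had adjusted p = 0.110. Slc15a3 and Tmem132a were not called in that step in any genotype.

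In Cd5-/- cells 3 of 6 were called at 4 h against 0 h, beside 19.5% of all genes. Xdh rose by 1.53 on the log2 scale (SE 0.21), Wdfy1 by 1.73 (SE 0.41, edgeR adjusted p = 0.000345), and Carnmt1 by 0.82, under the fold threshold (SE 0.30, adjusted p = 0.0265). Without the 0 h libraries that went against their labels, the Carnmt1 rise in Cd5-/- cells was 1.31 and was called. In Cd6-/- cells 2 of 6 were called, beside 18% of all genes, with Carnmt1 up by 1.83 (SE 0.29) and Xdh by 1.03 (SE 0.21) on the log2 scale. Without the replicates numbered 1, Xdh was at 0.94 there and under the fold threshold. Without the 0 h libraries that went against their labels, 1 more, Wdfy1, was called in Cd6-/- cells. In the double knockout 3 of 6 were called, beside 17.2% of all genes, with Carnmt1 up by 1.60 (SE 0.29), Xdh by 1.21 (SE 0.21) and Wdfy1 by 1.14 (SE 0.41) on the log2 scale, the last with adjusted p = 0.159 in DESeq2 and at 0.96, under the fold threshold, without the replicates numbered 2.

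The LAT experiment used other mice and a table that played no part in the choice. At 20 h, Xdh, Tmem132a and Wdfy1 were called in Lat-/- cells against WT, where 24.4% of all genes were. The calls of Tmem132a and Wdfy1 depended on the fit, as given below. Lat RNA stood at 92.2 to 351 CPM over the 9 WT libraries and at 5.69 to 19.1 CPM over the 9 Lat-/- libraries. B cell markers summed to 0.579 to 4.76 CPM over all 18 sorted libraries, and regulatory T cell markers to 50.8 to 95.3 CPM in WT and 5.42 to 37.0 CPM in Lat-/- libraries. Gcnt1 was at or near the floor there. It did not pass 0.407 CPM in any of the 18 libraries, and no comparison of Gcnt1 was called. The 6 genes in each sorted library are drawn in the plot of CPM for WT and Lat-/- cells.

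**Figure D4:**
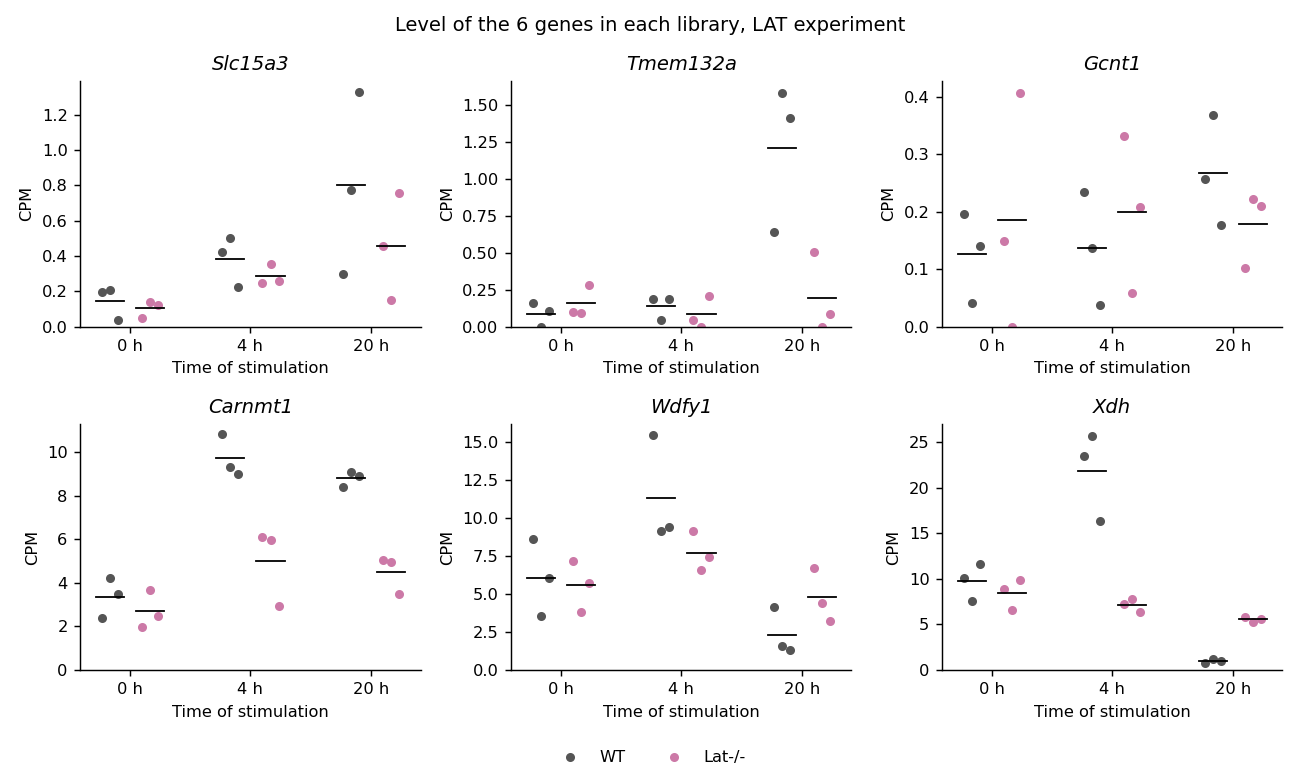
CPM (linear axis from 0, with its own range for each gene) of the 6 genes in each library of the LAT experiment at 0, 4 and 20 h, with 1 point per library and a bar for the mean of 3. Xdh of WT cells rises from 0 h to 4 h and is at 0.770 to 1.14 CPM at 20 h, whereas Xdh of Lat-/- cells stays between 5.23 and 9.84 CPM at all times.

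Xdh had opposite differences at the 2 times of stimulation. In sorted WT cells, Xdh stood at 10.1, 7.56 and 11.7 CPM at 0 h, 23.6, 25.8 and 16.3 CPM at 4 h, and 0.770, 1.14 and 0.928 CPM at 20 h. In Lat-/- cells it stood at 8.84, 6.57 and 9.84 CPM at 0 h, 7.28, 7.75 and 6.35 CPM at 4 h, and 5.82, 5.23 and 5.59 CPM at 20 h. The genotypes overlapped at 0 h, whereas at 4 h every Lat-/- library lay below WT and at 20 h every one lay above it.

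Xdh in Lat-/- cells fell by 1.62 on the log2 scale against WT at 4 h (SE 0.23, edgeR adjusted p = 3.18e-11) and was 2.53 above WT at 20 h (SE 0.27, adjusted p = 1.77e-19). At 4 h, regulatory T cell markers summed to 8.86 to 37.0 CPM in Lat-/- and 53.0 to 80.9 CPM in WT cells. The stroma or endothelium list summed to 258 to 328 CPM in Lat-/- and 71.8 to 181 CPM in WT at 4 h, and to 302 to 349 and 34.2 to 50.8 CPM at 20 h. Nearly all of those sums was Pecam1, which T cells also express, and Cdh5, Col1a1 and Pdgfrb did not pass 0.221 CPM in these libraries. The part of these markers in the Xdh and Carnmt1 values was not tested. The responses of Xdh themselves differed, by -1.40 on the log2 scale at 4 h (SE 0.32, adjusted p = 0.000181) and by 2.75 at 20 h (SE 0.35, adjusted p = 1.70e-13). From 0 h to 20 h, Xdh in sorted WT cells fell by 3.35 on the log2 scale (SE 0.27, adjusted p = 8.42e-34), and in Lat-/- cells it differed by -0.60 (SE 0.23, adjusted p = 0.0756).

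Carnmt1 was lower in stimulated Lat-/- cells, just under the fold threshold. At 4 h, Carnmt1 stood at 10.8, 9.30 and 9.02 CPM in sorted WT and at 6.08, 5.99 and 2.91 CPM in Lat-/- libraries, with no overlap. It differed by -0.96 on the log2 scale at 4 h (SE 0.26, edgeR adjusted p = 0.00135) and by -0.97 at 20 h (SE 0.26, adjusted p = 0.000700), from 8.39, 9.07 and 8.92 CPM in WT to 5.06, 4.94 and 3.49 CPM in Lat-/-, again with no overlap. At 0 h the WT libraries held 2.39, 4.22 and 3.47 CPM and the Lat-/- libraries 1.97, 3.68 and 2.48 CPM, which overlapped. The difference in the Carnmt1 response between genotypes was -0.66 on the log2 scale at 20 h (SE 0.38, adjusted p = 0.218), and was not called.

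Tmem132a and Wdfy1 were called in Lat-/- cells at 20 h. Tmem132a stood at 0.642, 1.59 and 1.41 CPM in WT and at 0.506, 0 and 0.0841 CPM in Lat-/- libraries at 20 h, from 10, 0 and 2 reads in the latter. Groups did not overlap, and Tmem132a fell by 2.69 on the log2 scale (SE 0.76, edgeR adjusted p = 0.00154). Without the replicates numbered 2 the difference was -1.78 with adjusted p = 0.0860, and without those numbered 3 it was -2.21 with adjusted p = 0.0543. Wdfy1 stood at 4.11, 1.55 and 1.28 CPM in WT and at 6.73, 4.42 and 3.20 CPM in Lat-/- libraries at 20 h, with overlap of the highest WT library. Wdfy1 was 1.04 above WT on the log2 scale (SE 0.27, adjusted p = 0.000400), and fell under the fold threshold, at 0.98 to 1.00, when scaled by library totals or RLE factors. Regulatory T cell markers summed to 5.42 to 13.8 CPM in Lat-/- and 50.8 to 53.9 CPM in WT cells at 20 h, and those of NK cells to 0.520 to 2.57 and 9.10 to 10.7 CPM, and their part in these results was not tested.

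Altogether 0 of 6 members were called in Lat-/- cells at 0 h (edgeR and DESeq2, with 0 at an unadjusted p under 0.05), 1 at 4 h and 3 at 20 h, where 0.961%, 11.7% and 24.4% of all genes were called. The 20 h count was 1 of 6 without the replicates numbered 2 and 1 of 6 without those numbered 3. Sorted WT cells had 2 of 6 called at 4 h against 0 h (Carnmt1 up by 1.53 and Xdh up by 1.16 on the log2 scale) and 5 of 6 at 20 h, beside 17.3% and 23.5% of all genes. Lat-/- cells had 0 of 6 called in either response by edgeR, and 0 by DESeq2, beside 6.7% and 4.21% of all genes. At an unadjusted p under 0.05 there was 1 at 4 h and there were 3 at 20 h. The response to stimulation differed between genotypes for 1 of 6 members at 4 h (Xdh) and 3 at 20 h (Tmem132a, Wdfy1 and Xdh), beside 8.71% and 19.5% of all genes. Without the replicates numbered 2, Xdh in sorted WT cells at 4 h was at 0.82 and 1 of 6 was called.

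Genes with related roles, taken from 6 lists, are given beside the members. In the Cd5 and Cd6 knockouts against WT, at most 0.0743% of all genes were called at any time, so that lists of this size would hold few or no calls at that share. Of 22 genes of purine breakdown, purine salvage and molybdenum cofactor synthesis, the pathway of Xdh, 0 were called in any of the 3 knockouts against WT at 0, 4 or 20 h. The same held for 30 genes of O-glycan synthesis and its carriers (Gcnt1), 15 of 16 listed SLC15 transporters and partners of NOD and endosomal TLRs that were tested (Slc15a3), 6 relatives and partners of Tmem132a, 14 of the WDFY family and TLR3 or TLR4 signaling (Wdfy1) and 8 of histidine dipeptides and histidine methylation (Carnmt1). Between the double knockout and Cd5-/- cells at 4 h, 5 listed genes were higher in the double knockout: the guanine deaminase Gda by 2.55 on the log2 scale, the peptidoglycan sensor Nod1 by 1.05, the endosomal receptor Tlr7 by 1.14, its chaperone Unc93b1 by 1.17 and Wdfy4 by 1.29. Of all genes, 0.579% were called in that comparison. B cell markers differed between the same libraries, as given above for Carnmt1. Dendritic cell markers did not overlap either, at 6.60 to 10.4 CPM in the double knockout and 4.57 to 6.54 CPM in Cd5-/- cells. The part of either cell type in these 5 was not tested.

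More genes were called with stimulation and with loss of LAT. In sorted WT cells at 20 h against 0 h, 8 of 20 tested purine genes rose and 4 fell, beside 23.5% of all genes called in either direction. The salvage enzymes Hprt, Aprt and Pnp rose by 1.43, 1.41 and 1.76 on the log2 scale, whereas Mocos, which finishes the molybdenum cofactor used by Xdh, fell by 2.17. In Lat-/- against WT cells at 20 h, 3 of 20 purine genes were higher and 8 lower, with Hprt, Aprt and Pnp lower by log2 differences of -1.19, -1.62 and -1.85 and Mocos higher by 2.89. So Mocos, as Xdh, was lower in WT at 20 h than at 0 h and higher in Lat-/- than in WT at 20 h. At 4 h Xdh was lower in Lat-/- than in WT, as given above. A link between Mocos and Xdh was not tested.

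In the list around Gcnt1, 7 of 30 were higher and 6 lower in Lat-/- cells at 20 h. The fucosyltransferases Fut7 and Fut4, which finish selectin ligands, were lower by log2 differences of -2.88 and -3.88, and the ligand scaffold Selplg was higher by 1.60. Around Slc15a3, 4 of 15 were higher and 3 lower, with the peptide transporter Slc15a2 higher by 3.98 and Nod2 higher by 4.01 on the log2 scale. Around Tmem132a, 1 of 3 was higher (Wls, by 1.23) and 1 lower, its partner Hspa5, by a log2 difference of -1.87, and Tmem132a itself was lower in the same comparison. Around Wdfy1, 2 of 14 were higher, Wdfy2 by 1.31 and Tlr3 by 5.28, and 2 lower, Wdfy4 and Ticam2, by log2 differences of -5.36 and -4.46. Around Carnmt1, 1 of 7 was higher, the histidine decarboxylase Hdc by 1.56, and 1 lower, the dipeptidase Cndp2, by a log2 difference of -1.76. All of these shares stand beside 24.4% of all genes called in Lat-/- cells at 20 h, and 45.6% of those averaging 10 counts or more, and no list was tested against these shares.

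Since 4 members share a chromosome with the targeted genes, the genes around these were counted. Of 247 genes that averaged 10 counts or more and lay within 10 Mb of Cd5 and Cd6, those genes left out, 1 was called in Cd5-/- cells at 4 h, Carnmt1, and 2 at 20 h, Gcnt1 and Carnmt1, and neither lay within 2 Mb. Among all 13738 genes at that level, 0.167% and 0.0437% were called. In Cd6-/- cells 0 of 247 were called by edgeR at any of the 3 times, beside 0%, 0.00728% and 0.0437% of all such genes. In the double knockout, A430093F15Rik was the 1 of 247 called at 0 h and at 4 h, beside 0.0582% and 0.0946% of all such genes. At 20 h 3 were called, A430093F15Rik, Slc15a3 and Tmem132a, beside 0.102% of all such genes. A430093F15Rik lies between the expected cuts, so its calls say nothing of genes outside them. As the 20 h calls of the members come from the choice, they add no evidence of their own.

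A430093F15Rik, between the expected cuts of CD5-1 and CD6-1, was lower in the double knockout by log2 differences of -9.27 at 0 h (SE 0.39), -10.94 at 4 h (SE 0.35) and -12.49 at 20 h (SE 0.40). In Lat-/- cells, whose interval is intact, A430093F15Rik was lower as well, by log2 differences of -3.56, -2.70 and -3.17 at 0, 4 and 20 h. At 20 h, Tmem132a was lower in the double knockout and in Lat-/- cells. Its Lat-/- call depended on the replicates kept, as given above. Slc15a3 at 20 h stood at 0.300, 0.774 and 1.33 CPM in sorted WT and 0.455, 0.148 and 0.757 CPM in Lat-/- cells. It overlapped between these genotypes and was not called (log2 difference -0.82, SE 0.67). A link of either gene with A430093F15Rik was not tested. Within the same 10 Mb, 98 of 225 genes (43.6%) were called in Lat-/- cells at 20 h, beside 45.6% of all such genes.

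**Figure D5:**
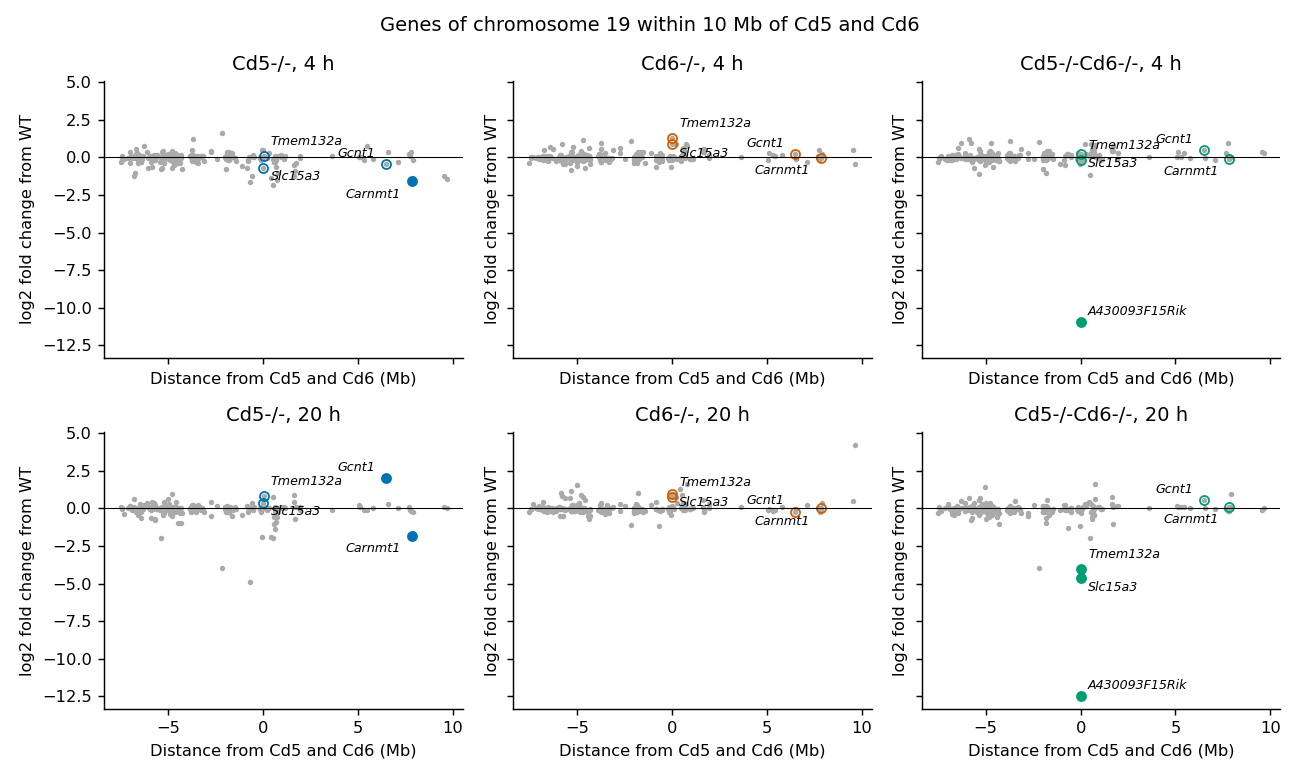
log2 fold change from WT of genes within 10 Mb of Cd5 and Cd6 by their distance in Mb from the locus, for Cd5-/-, Cd6-/- and Cd5-/-Cd6-/- cells at 4 h and 20 h, with called genes marked. Of 247 genes, 1 and 2 are called in Cd5-/- cells at 4 h and 20 h, none in Cd6-/- cells, and 1 and 3 in the double knockout. The double knockout counts include A430093F15Rik, which lies between the expected cuts.

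The genes with the most similar pattern over the 36 libraries of the CD5/CD6 experiment, once the mean of each time was taken away, were sought among the 13738 genes that averaged 10 counts or more. Correlations of log2 CPM are given as descriptions, over libraries that share groups and time points and, for neighbors on chromosome 19, the edited locus. Since the 36 libraries include those at 20 h that chose the members, a likeness between members, as of Slc15a3 and Tmem132a, is in part fixed by the choice. Closest to Slc15a3 was Tmem132a (Pearson r = 0.77), followed by Alox5ap (0.69), which serves leukotriene synthesis in myeloid cells, and the lipase Lipe (0.66). Closest to Tmem132a were Slc15a3, Lipe (0.64) and Gm37829 (0.64).

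Closest to Gcnt1 were the myosin Myo1e (0.69), the chemokine Ccl5 (0.68) and Rhobtb1 (0.66). Closest to Carnmt1 were Gm2682 (0.88), 1110059E24Rik (0.71) on chromosome 19 and the kinase Camk2a (0.70). For Gm2682 the rank correlation was 0.49. Closest to Wdfy1 were Orm2 (0.77), Rab4a (0.72) of early endosomes and Gm8116 (0.70), the last pair with rank correlations of 0.39 and 0.38. Closest to Xdh were Ajuba (0.76), the transcriptional repressor Gfi1 (0.70) and the phosphatase Ptpn22 (0.67).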

How the data were processed

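RNA from naive CD4+ T cells was sequenced as single reads of TruSeq stranded mRNA libraries on an Illumina HiSeq. The deposited values were raw counts per gene, which the authors made by aligning reads with STAR to GRCm38 and counting them with featureCounts (bcl2fastq 2.17.1.14 and DESeq2 are also named in the submitters' notes). The annotation release and strand setting are not given in the sources used here. Genes with at least 1 read were tested (32290 and 27780 in the CD5/CD6 and LAT experiments) with edgeR 4.0.16 in R 4.3.3, using TMM factors, 1 coefficient per genotype and time, all samples of an experiment in 1 fit, and Benjamini-Hochberg adjustment over all genes tested. Named genes were the 6 members, Cd5, Cd6 and Lat, called genes of 6 role lists and of the 10 Mb window, and the 3 genes most like each member. Members and lists were chosen with earlier results of these data known. SE is the log2 difference divided by the square root of the F statistic. CPM used TMM-scaled totals. Same-numbered samples deviated together (every r over 0.1) in Cd5-/- against WT at 4 h (0.157 to 0.411) and in 8 other comparisons of the CD5/CD6 experiment, and in Lat-/- against WT at 0 h. Alternatives were DESeq2 1.42.0, RLE factors, library totals, edgeR's filter on low counts, the replicate block, each replicate number left out, only the groups compared, adjusted p alone, the 0 h libraries that went against their labels left out, a 2 Mb window and rank correlation. The fit was tested on simulated counts with a fixed spread, for genes averaging 10 counts or more. That simulation does not cover genes near the floor or with a wider spread.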

Additional observations from a re-analysis of the deposited data

Results flagged for a closer look

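The response to stimulation differed between Lat-/- and WT cells for 3 members, by edgeR's test of the difference itself, given here as the log2 change of Lat-/- minus that of WT with n = 3 in each of 4 groups. Xdh, an enzyme of purine breakdown, differed by -1.40 at 4 h (SE 0.32, edgeR adjusted p = 0.000181) and by 2.75 at 20 h (SE 0.35, edgeR adjusted p = 1.70e-13). Both held in every alternative run. Tmem132a differed by -3.53 at 20 h (SE 1.20, edgeR adjusted p = 0.0149), but by -2.35 without the replicates numbered 2 (edgeR adjusted p = 0.215) and by -2.46 without those numbered 3 (edgeR adjusted p = 0.353). Wdfy1 differed by 1.17 at 20 h (SE 0.37, edgeR adjusted p = 0.00704), with adjusted p = 0.0936 in DESeq2 and 0.0893 with edgeR's filter on low counts. Regulatory T cell and NK cell markers were lower in Lat-/- cells at 20 h, and their part in these differences was not tested.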

How the results depend on the processing

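Counts of members called, of 6, changed as follows, and the causes were not tested. For Cd5-/- against WT, the count of 0 at 0 h became 1 without the 0 h libraries that went against their labels and ranged from 0 to 2 when each replicate number was left out (2 without number 2). The count of 1 at 4 h became 0 with edgeR's filter on low counts, 2 with the replicate block, and 2 to 2 with each number left out. For the double knockout against Cd5-/- at 4 h, 2 became 1 with DESeq2, 1 with library totals and 0 with the filter. From 0 h to 4 h, library totals gave 2 in place of 4 in enriched WT cells and 1 in place of 2 in sorted WT cells. By adjusted p alone, Lat-/- cells had 2 in place of 1 against WT at 4 h and 1 in place of 0 in their own 4 h response. With each number left out, counts ranged from 1 to 3 in the Cd6-/- response at 4 h, 1 to 2 for Lat-/- against WT at 4 h, 1 to 4 at 20 h, 1 to 3 for sorted WT at 4 h, and 0 to 1 for both Lat-/- responses. Within 2 Mb of Cd5 and Cd6, 0 genes were called in Cd5-/- cells at 4 h (in place of 1) and 0 at 20 h (in place of 2). The replicate block moved no other count by over 1.5 times. No difference of a member with an unadjusted p under 0.05, and none at 20 h, became a call in the other direction. Of 691 refits of the 76 other differences, 61 had the other sign and 3 were called, all 3 of Wdfy1. Counts near the floor limit Tmem132a, Gcnt1 and Slc15a3 in sorted cells.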
